A study of Mus musculus with 12 samples.

Results

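The genes described here make, sense and remove prostanoids, and they are 9 of the 32419 genes listed in the tables of the study. They were chosen by symbol as the cyclooxygenases Ptgs1 and Ptgs2, the terminal synthases Ptgis, Ptges, Ptgds and Tbxas1, the receptors Ptger4 and Ptgir, and the inactivating enzyme Hpgd. Earlier results of these data were known when they were chosen. RNA-seq was carried out on primary brain endothelial cells (BECs) of wild-type (Cort+/+) mice and of mice lacking the neuropeptide cortistatin (Cort-/-), all on a C57BL/6 background. The BECs were isolated from adult brain microvessels, enriched with puromycin and cultured before the experiment, so they report cells in culture rather than vessels in the brain, and each replicate was a pool of 3 mice. Cells were kept for 24 h in normoxia and normoglycaemia (NX/NG, 21% O2 and 5.5 mM glucose), or for 4 h at 1% O2 without glucose and then reoxygenated for 20 h (OGD-R, an ischaemia-like injury). The medium of the 4 h step also lacked serum, and serum was present again during reoxygenation, so OGD-R changed serum as well as oxygen and glucose. Both Cort-/- groups carry the deletion from the germ line, and no agent was added in any of the 4 groups. Values were given for 10 of 12 samples: 3 Cort+/+ and 2 Cort-/- replicates in each environment. The third Cort-/- replicate under NX/NG and the second under OGD-R were not analysed here.

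Prostanoids are lipid signals made from arachidonic acid, which phospholipases release from membranes. A cyclooxygenase, either the constitutive PTGS1 (COX-1) or the inducible PTGS2 (COX-2), converts it to prostaglandin H2, and terminal synthases then give prostacyclin (PTGIS), prostaglandin E2 (PTGES), prostaglandin D2 (PTGDS) or thromboxane (TBXAS1). In vessels, prostacyclin is known for relaxing smooth muscle and restraining platelets, and brain endothelial prostaglandin E2 is known as a mediator of fever and inflammation.

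Levels are given in RPKM (reads per kilobase of gene, divided by a library size that the authors set), as the authors deposited them, and reads per gene were recovered from these values. The recovered reads on genes were between 12386048 and 12390428 in each library. The sources used here give no reason for such equal totals, so they need not be the sequencing depth. For Cort itself, 2, 1 and 1 reads were found in Cort+/+ BECs under NX/NG, 1 read in the third Cort+/+ replicate under OGD-R and 0 in the other 6 libraries, so its level checks the labels only weakly. The summed level of 14 endothelial markers was between 1050 and 1548 RPKM. Among other cell types, the astrocyte, oligodendrocyte, platelet and macrophage or microglial lists each summed to less than 3 RPKM in every library. The epithelial list summed to 8.82 to 58.8 RPKM and the choroid plexus epithelial list to 13.6 to 19.9 RPKM. The smooth muscle list summed to 995 to 1777 RPKM, nearly all of it from the contractile genes Acta2 and Tagln, and its marker Myh11 was at 0.51 to 2.11 RPKM. In bulk RNA, fewer cells of a type and less RNA per cell cannot be told apart. Cort-/- OGD-R replicate 3 and Cort+/+ OGD-R replicate 1 held 0.0951% and 0.0775% of their reads on the ribosomal RNA gene Rn18s-rs5, against 7.64% to 15.8% in the other 8 libraries. These 2 are called low in ribosomal RNA below, by this gene only.

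The prostanoid genes spanned from over 80 RPKM to nearly no reads, and their order was similar in all groups. In Cort+/+ BECs under NX/NG the levels were 72.0 ± 15.5 RPKM for Ptgs2, 35.5 ± 5.17 RPKM for Ptgis, 15.0 ± 2.29 RPKM for Ptges and 11.9 ± 1.36 RPKM for Ptgs1 (SD, n = 3). Ptgds followed with 1.63 ± 0.434 RPKM and Ptger4 with 1.34 ± 0.0347 RPKM (SD, n = 3). By mean level, Ptgs2 had rank 522 of 29965 genes and Ptgs1 rank 3890. The ranges of neighbours in this order overlapped for Ptges and Ptgs1 and for Ptgds and Ptger4, although the first of each pair was the higher in 3 of 3 libraries. COX-2 was the more abundant cyclooxygenase transcript, and prostacyclin synthase the most abundant terminal synthase among the genes chosen, in each of the 10 libraries. Over all libraries, 6 of the 9 genes reached a mean of 1 RPKM, and the other 3 (Ptgir, Hpgd and Tbxas1) are given as reads.

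**Figure D1:**
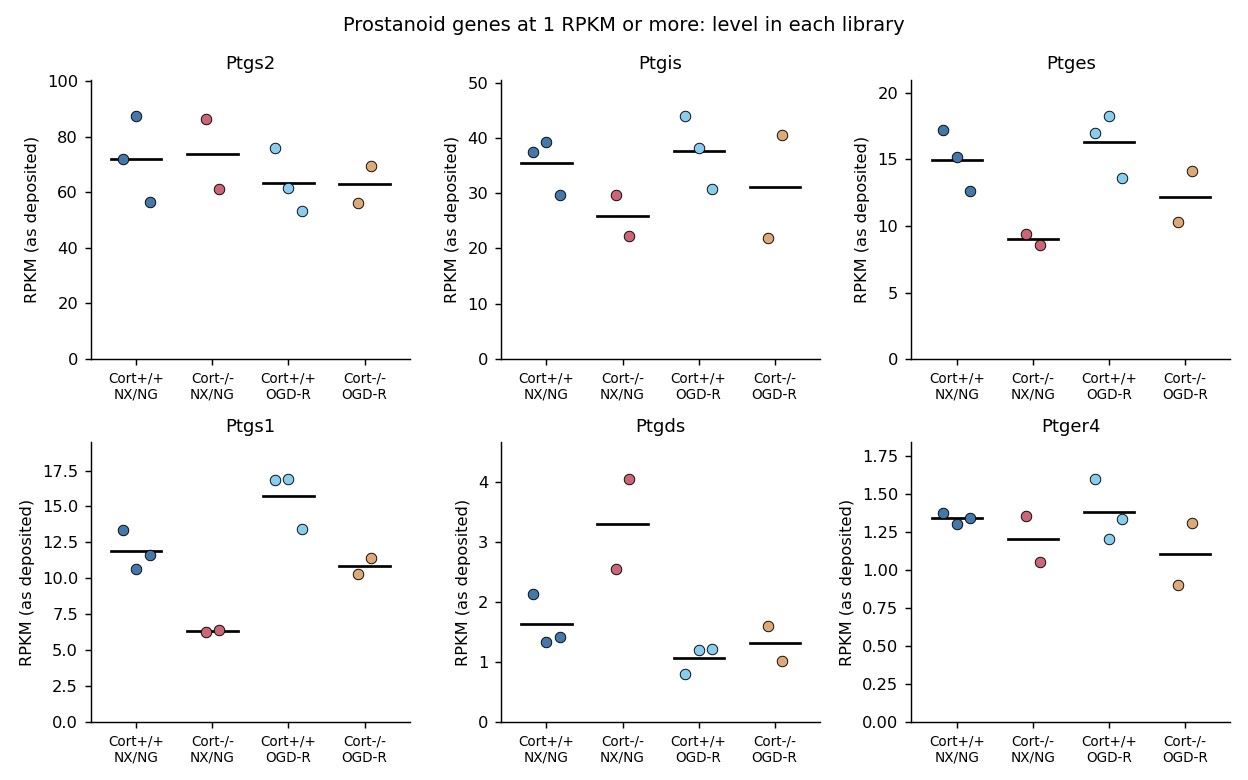
RPKM as deposited (vertical axes, linear from 0) of the 6 prostanoid genes whose mean is 1 RPKM or more, with 1 point for each library in order of replicate number and a bar at the group mean, for Cort+/+ (n = 3) and Cort-/- (n = 2) BECs under NX/NG and OGD-R. The Ptgs1 points of Cort-/- NX/NG lie at 6.25 and 6.40 RPKM, below the 3 Cort+/+ NX/NG points between 10.7 and 13.4 RPKM, whereas the Ptgs2 points of all groups overlap.

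Ptgs1, the constitutive cyclooxygenase (chr2:36230426-36252272, GRCm38), showed the largest genotype difference of the cyclooxygenases. Under NX/NG it was at 6.25 and 6.40 RPKM (300 and 316 reads) in the Cort-/- libraries and at 13.4, 10.7 and 11.6 RPKM (636, 545 and 521 reads) in the Cort+/+ libraries. Both Cort-/- libraries lay below every Cort+/+ library. The fold change was 0.538 (log2 fold change -0.89, SE 0.11, 95% confidence interval -1.16 to -0.62, limma FDR = 0.138). It did not pass an FDR of 0.05 in the main test, limma on log2(RPKM + 0.1), which called 0 of 29965 genes (0% called) and left 8.39% of them at an unadjusted p under 0.05. In limma-voom on the recovered reads, which called 124 genes (0.414%), Ptgs1 passed (log2 fold change -0.90, SE 0.12, limma-voom FDR = 0.0145).

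Under OGD-R the Ptgs1 levels were 10.3 and 11.4 RPKM in Cort-/- and 16.9, 16.9 and 13.4 RPKM in Cort+/+ BECs. The groups again did not overlap, as for 1 of the 6 genes with at least 1 RPKM, where 8.22% of all such genes were lower in Cort-/- BECs without overlap. The log2 fold change was -0.53 (SE 0.14, 95% confidence interval -0.87 to -0.19, limma FDR = 0.878), with 0 of 29775 genes called (0%) and 3.42% of them at an unadjusted p under 0.05. Limma-voom called 5 genes (0.0168%), none of them a prostanoid gene. Without the 2 libraries low in ribosomal RNA the log2 fold change of Ptgs1 was -0.55, with only 1 Cort-/- library left.

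Ptgs2, the inducible cyclooxygenase (chr1:150100031-150108227), did not share this pattern. Under NX/NG it was at 86.3 and 61.1 RPKM in Cort-/- and at 71.9, 87.4 and 56.5 RPKM in Cort+/+ BECs, and under OGD-R at 56.1 and 69.6 RPKM and at 75.8, 61.5 and 53.4 RPKM. The genotypes overlapped in both environments, with between 2921 and 5262 reads per library. The log2 fold change of Cort-/- over Cort+/+ was 0.04 under NX/NG (95% confidence interval -0.57 to 0.64, limma FDR = 0.956) and -0.01 under OGD-R (-0.47 to 0.46, limma FDR = 0.994). The interval under NX/NG covers a log2 fold change of the size seen for Ptgs1 under OGD-R (-0.53), and neither interval covers that of Ptgs1 under NX/NG (-0.89).

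As a description chosen after the values were seen, the ratio of Ptgs2 to Ptgs1 RPKM within a library was 13.8 and 9.55 in Cort-/- NX/NG against 5.39, 8.19 and 4.86 in Cort+/+ NX/NG BECs. Under OGD-R it was 5.45 and 6.11 against 4.50, 3.63 and 3.98. The Cort-/- libraries had the higher ratios in each environment.

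Ptges, which encodes the microsomal prostaglandin E synthase (chr2:30889471-30929863), lay with Ptgs1 under NX/NG. Under NX/NG it was at 9.39 and 8.59 RPKM (456 and 429 reads) in Cort-/- and at 17.2, 15.2 and 12.6 RPKM (828, 785 and 572 reads) in Cort+/+ BECs, with no overlap. The fold change was 0.606 (log2 fold change -0.72, SE 0.14, 95% confidence interval -1.08 to -0.36, limma FDR = 0.290), and in limma-voom it passed narrowly (log2 fold change -0.73, limma-voom FDR = 0.0492). Under OGD-R the levels were 10.3 and 14.1 RPKM against 17.0, 18.3 and 13.6 RPKM, so that the groups overlapped, and the log2 fold change was -0.42 (SE 0.19, limma FDR = 0.978). It was -0.64 without Cort-/- OGD-R replicate 3 and -0.19 without Cort-/- OGD-R replicate 1.

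Ptgis, the prostacyclin synthase (chr2:167191805-167240604), was at 29.6 and 22.2 RPKM in Cort-/- and at 37.5, 39.3 and 29.6 RPKM in Cort+/+ BECs under NX/NG. The groups met at 29.6 RPKM, and the log2 fold change was -0.46 (SE 0.18, 95% confidence interval -0.91 to 0.00, limma FDR = 0.596). It was -0.25 without Cort-/- NX/NG replicate 2. Under OGD-R the 2 Cort-/- libraries lay at 21.8 and 40.5 RPKM, on both sides of most of the Cort+/+ range of 30.7 to 43.9 RPKM. The log2 fold change there was -0.32 (SE 0.30, limma FDR = 0.978), and its sign depended on the library: 0.12 without Cort-/- OGD-R replicate 1 and -0.77 without Cort-/- OGD-R replicate 3, the library low in ribosomal RNA.

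Ptgds, the lipocalin-type prostaglandin D synthase (chr2:25466709-25470046), lay in the other direction under NX/NG. It was at 2.55 and 4.06 RPKM (52 and 85 reads) in Cort-/- and at 2.13, 1.34 and 1.42 RPKM (43, 29 and 27 reads) in Cort+/+ BECs, without overlap. The log2 fold change was 0.97 (SE 0.29, 95% confidence interval 0.22 to 1.72, limma FDR = 0.478), or 0.65 without Cort-/- NX/NG replicate 2, the higher of the pair, and 1.29 without Cort-/- NX/NG replicate 1. Under OGD-R it was at 1.60 and 1.02 RPKM against 0.795, 1.20 and 1.22 RPKM, with a log2 fold change of 0.26 (SE 0.32, limma FDR = 0.978). Ptgds is also abundant in leptomeningeal cells, whose 6 measured markers summed to 4.53 to 5.80 RPKM in Cort-/- and 8.53 to 14.8 RPKM in Cort+/+ NX/NG libraries. Most of that sum came from Crabp2 and Foxd1, the defining markers Slc6a13 and Slc47a1 were at 0 to 0.06 RPKM, and the part of leptomeningeal cells in the Ptgds values was not tested.

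Under NX/NG, 3 of the 6 prostanoid genes with at least 1 RPKM were lower and 1 was higher in Cort-/- BECs with no overlap between the genotypes, where 16.5% and 16.2% of all such genes were lower and higher. The lower genes were Ptgs1, Ptges and Ptgis, but Ptgis was separated only by a margin lost on rounding (29.619 against 29.620 RPKM), and its groups overlapped on the jointly scaled RPKM (30.5 against 30.4). At an unadjusted limma p under 0.05 there were 2 lower genes (Ptgs1 and Ptges) and 1 higher (Ptgds) of the 7 genes with a fold, against 4.82% lower and 3.56% higher over all genes. The median log2 fold change of the 7 genes was -0.30, beside -0.01 over all genes tested. Under OGD-R 1 of 7 (Ptgs1) was lower at an unadjusted limma p under 0.05, against 1.71% of all genes, and the median was -0.31 beside -0.01. Because the genes were chosen with earlier results of these data known, these shares and medians describe them and are not a test.

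**Figure D2:**
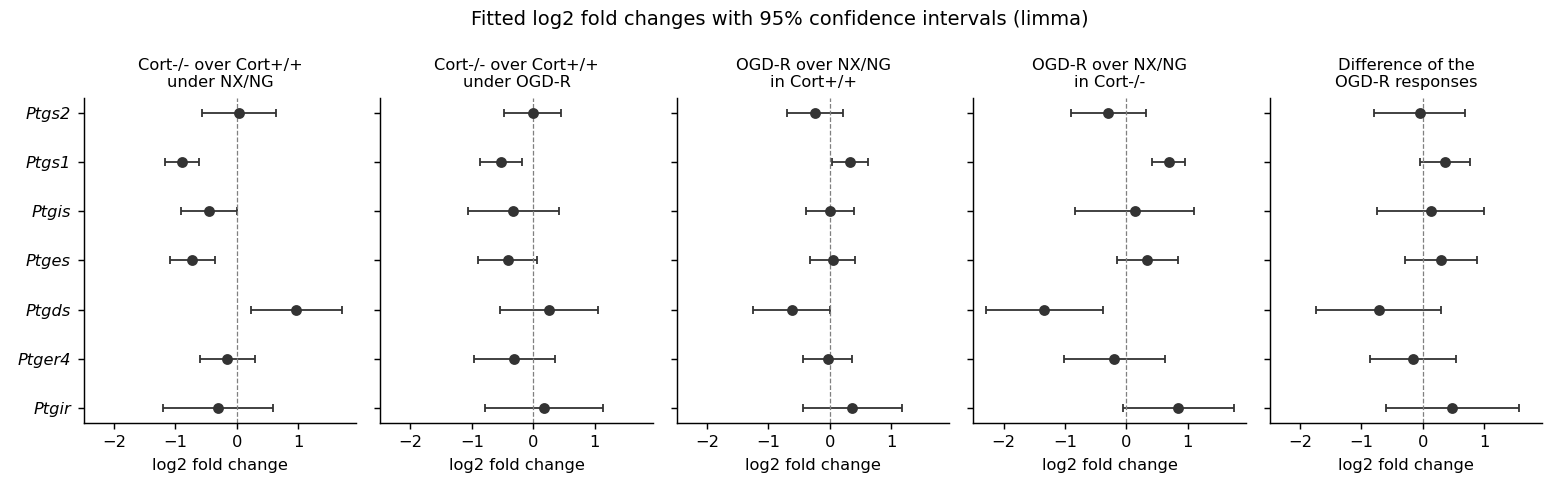
Log2 fold changes from limma on log2(RPKM + 0.1) (horizontal axes) of the 7 prostanoid genes with enough reads (rows), with bars for the 95% confidence interval, for the 2 genotype comparisons, the 2 OGD-R responses and the difference of the responses. Under NX/NG the intervals of Ptgs1 (-1.16 to -0.62), Ptges (-1.08 to -0.36) and Ptgds (0.22 to 1.72) leave out 0, and all intervals of the difference of the responses cover 0.

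The summed pericyte and fibroblast markers were lower in the same 2 libraries as Ptgs1 and Ptges, whereas the smooth muscle sums overlapped between the genotypes under NX/NG (1299.5 and 1556 RPKM in Cort-/- and 1449 to 1777 RPKM in Cort+/+ libraries). The endothelial sums under NX/NG were 1329 and 1462 RPKM in Cort-/- and 1058, 1050 and 1332 RPKM in Cort+/+ libraries, with overlap. The 6 fibroblast markers summed to 83.6 and 121 RPKM in Cort-/- and to 193 to 279 RPKM in Cort+/+ NX/NG libraries, mostly from the collagen genes Col1a1, Col1a2 and Col3a1, while the defining marker Lum was at 0.00 to 0.15 RPKM in all libraries. The defining marker Pdgfra lay in the opposite order to that sum under NX/NG, at 0.485 and 0.706 RPKM in Cort-/- and 0.366, 0.319 and 0.320 RPKM in Cort+/+ libraries. The fibroblast sum is mostly collagen RNA, so it cannot tell fewer fibroblasts from less collagen RNA per cell. The 8 pericyte markers summed to 8.61 and 11.3 RPKM against 20.2 to 23.6 RPKM, mostly from Pdgfrb and Cspg4, while Kcnj8, Abcc9 and Higd1b were at 0.00 to 0.10 RPKM. Under OGD-R the fibroblast sums were 200 and 252 RPKM in Cort-/- and 231 to 342 RPKM in Cort+/+ libraries, and the pericyte sums were 16.8 and 19.3 RPKM against 18.7 to 24.5 RPKM, with overlap in both. The part of these cells in the prostanoid values was not tested.

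**Figure D3:**
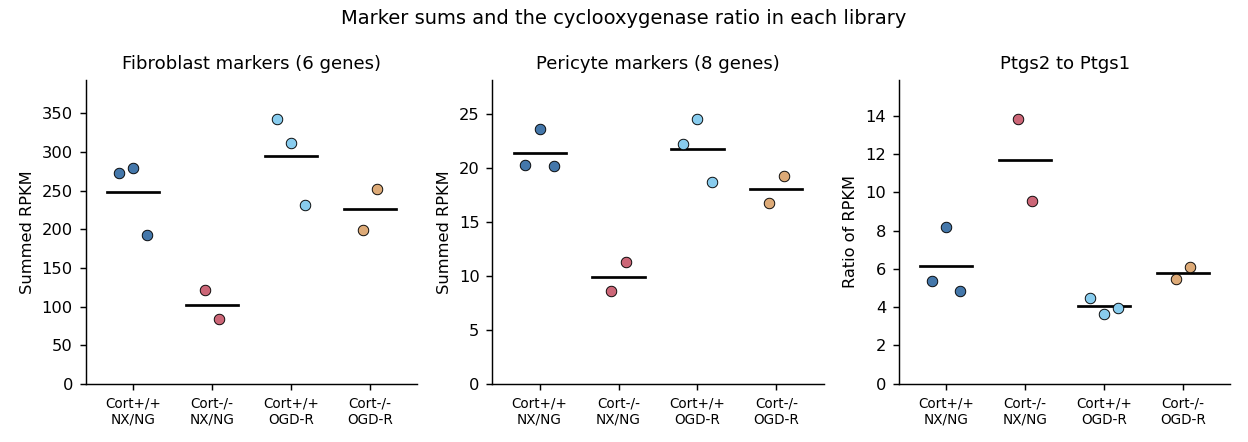
Summed RPKM of the fibroblast markers (left) and pericyte markers (middle) and the ratio of Ptgs2 to Ptgs1 RPKM (right) in each library, with 1 point for each library and a bar at the group mean, for the 4 groups. Both sums are lowest in the 2 Cort-/- NX/NG libraries (83.6 and 121 RPKM, and 8.61 and 11.3 RPKM), where the ratio is highest (9.55 and 13.8).

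The promoters of the genes on which these comparisons turn are printed so that the genes that were lower in Cort-/- BECs under NX/NG (Ptgs1 and Ptges) can be read against Ptgs2. RefSeq promoters (GRCm38.p6, 250 bases before to 50 bases after the start of the gene) were found for 8 of the 9 genes, and Ptgis was the gene without an entry. The 5 motifs were searched on both strands, and their matches are in capitals: the TATA box TATAAA, the GC box GGGCGG, the cAMP response element half-site TGACG, the hypoxia response element core ACGTG and the AP-1 site TGANTCA.
Ptgs1 (chr2:36230176-36230475, plus strand): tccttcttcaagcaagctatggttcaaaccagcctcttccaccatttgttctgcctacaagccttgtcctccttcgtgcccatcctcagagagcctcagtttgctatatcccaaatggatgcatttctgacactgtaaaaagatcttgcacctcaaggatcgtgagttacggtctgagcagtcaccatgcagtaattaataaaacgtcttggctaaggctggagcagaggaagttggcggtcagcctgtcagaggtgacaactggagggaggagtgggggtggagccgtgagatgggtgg
Ptges (chr2:30903248-30903547, minus strand): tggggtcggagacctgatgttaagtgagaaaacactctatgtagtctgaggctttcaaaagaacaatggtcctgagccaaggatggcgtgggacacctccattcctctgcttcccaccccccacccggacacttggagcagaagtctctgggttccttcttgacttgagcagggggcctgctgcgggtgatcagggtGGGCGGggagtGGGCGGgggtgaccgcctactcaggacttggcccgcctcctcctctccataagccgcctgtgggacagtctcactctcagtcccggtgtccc
Ptgs2 (chr1:150099781-150100080, plus strand): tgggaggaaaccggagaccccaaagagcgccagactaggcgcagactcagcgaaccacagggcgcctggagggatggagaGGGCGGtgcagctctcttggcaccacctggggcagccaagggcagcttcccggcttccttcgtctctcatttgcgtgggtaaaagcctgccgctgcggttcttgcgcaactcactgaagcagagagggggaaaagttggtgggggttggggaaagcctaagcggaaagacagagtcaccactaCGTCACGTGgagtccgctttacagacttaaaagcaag
The Ptgs1 promoter held none of the motifs and had 50.7% G and C. The Ptges promoter, which lies within the longer gene span of the annotation used for positions, held 2 GC boxes, 53 and 42 bases before the start, and had 60.0% G and C. The Ptgs2 promoter held 1 GC box and, in bases 14 to 22 after the start, a cAMP response element half-site that overlaps the hypoxia response element core, which is matched on both strands there. Over 32851 RefSeq promoters, 35.7% held the GC box, 20.8% the half-site, 19.6% the hypoxia response element core, 13.6% the TATA box and 7.81% the AP-1 site. Such matches describe the letters only.

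The receptors among these genes were near or below 1 RPKM. Ptger4, the EP4 receptor for prostaglandin E2 (chr15:5206661-5244187), was at 1.35 and 1.05 RPKM in Cort-/- and at 1.37, 1.30 and 1.34 RPKM in Cort+/+ BECs under NX/NG, and at 0.898 and 1.31 RPKM against 1.60, 1.21 and 1.33 RPKM under OGD-R. The genotypes overlapped in both environments (log2 fold changes -0.15 and -0.31, SE 0.17 and 0.26, limma FDR = 0.786 and 0.978). Of its exonic bases, 16.5% are shared with genes on the opposite strand, and the strand setting of the counting was not given in the sources used here.

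Ptgir, the prostacyclin receptor (chr7:16906490-16910905), had 3 and 5 reads in Cort-/- and 8, 7 and 3 reads in Cort+/+ libraries under NX/NG, and 10 and 12 against 8, 12 and 7 reads under OGD-R. The genotypes overlapped in both environments, and a difference between them was not detectable with so few recovered reads (limma FDR = 0.788 and 0.978). The prostacyclin synthase was at 21.8 RPKM or more in the same libraries in which its receptor was at 0.324 RPKM or less.

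Tbxas1, the thromboxane synthase (chr6:38875404-39084585), had between 0 and 3 reads in each library, where a count of 0 allows up to 3 reads, so that no fold is given. Hpgd, which inactivates prostaglandins (chr8:56294585-56321043), had 1 and 5 reads in Cort-/- and 0, 2 and 0 reads in Cort+/+ libraries under NX/NG, and 6 and 1 against 0, 0 and 0 reads under OGD-R, and it is given without a fold as well. The 3 libraries with the epithelial marker Epcam above 0.10 RPKM were Cort-/- OGD-R replicate 1 (1.40 RPKM), Cort-/- NX/NG replicate 2 (0.29 RPKM) and Cort+/+ NX/NG replicate 2 (1.94 RPKM). They had 6, 5 and 2 reads on Hpgd, and the other 7 libraries had 0 or 1. The use of Epcam alone and the limit of 0.10 RPKM were not set in advance. Epcam is 1 of 7 epithelial markers listed, whose sums in these libraries were 42.4, 18.4 and 58.8 RPKM in the same order. The sum was also 20.5 RPKM in Cort+/+ OGD-R replicate 1 and 20.2 RPKM in Cort-/- OGD-R replicate 3. Those had 0 and 1 reads on Hpgd, so the full list does not order the libraries as Epcam does. The part of epithelial cells in these reads was not tested.

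**Figure D4:**
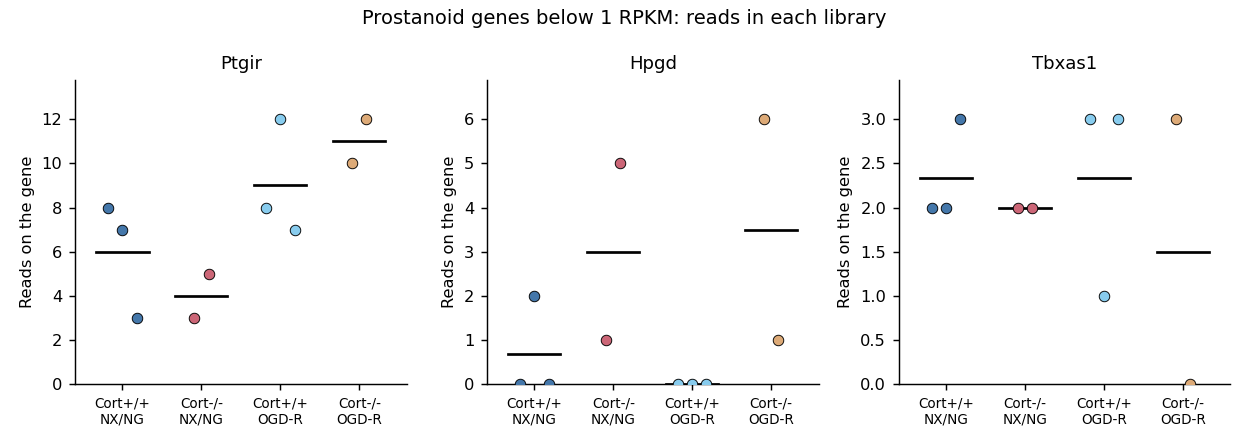
Reads on Ptgir, Hpgd and Tbxas1 (vertical axes, linear from 0) with 1 point for each library and a bar at the group mean, for the 4 groups of 3 or 2 libraries. Ptgir has between 3 and 12 reads in each library, Hpgd has 0 reads in the 3 Cort+/+ OGD-R libraries, and Tbxas1 never exceeds 3 reads.

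The response to OGD-R was compared within each genotype after the reads of both tables were scaled together, and the values in this and the next 3 paragraphs are such jointly scaled RPKM. No prostanoid gene was called in either genotype, where limma called 9 of 27075 genes in Cort+/+ BECs (0.0332%) and 0 of 26523 in Cort-/- BECs (0%), with 5.48% and 4.08% of genes at an unadjusted p under 0.05. Limma-voom called 1 (0.00369%) and 0 genes (0%).

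The mean Ptgs1 level was higher after OGD-R in both genotypes, but neither response passed the test. In Cort-/- BECs it was at 6.43 and 6.59 RPKM under NX/NG and at 10.03 and 11.1 RPKM after OGD-R, without overlap (fold change 1.61, log2 fold change 0.69, SE 0.10, 95% confidence interval 0.42 to 0.96, limma FDR = 0.582). Ptges was also higher there without overlap, as were 16.1% of all genes with at least 1 RPKM. In Cort+/+ BECs Ptgs1 was at 13.7, 10.9 and 11.9 RPKM and at 16.4, 16.5 and 13.1 RPKM, with overlap (log2 fold change 0.33, SE 0.12, limma FDR = 0.881). The difference between these responses was 0.36 on the log2 scale (SE 0.18, 95% confidence interval -0.05 to 0.77, limma FDR = 1.00), so a different response of the genotypes was not shown.

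The mean Ptgds level was lower after OGD-R in both genotypes, again without passing the test. In Cort-/- BECs it was at 2.63 and 4.18 RPKM under NX/NG and at 1.56 and 0.996 RPKM after OGD-R (fold change 0.395, log2 fold change -1.34, SE 0.35, limma FDR = 0.922). In Cort+/+ BECs it was at 2.18, 1.37 and 1.46 RPKM and at 0.774, 1.17 and 1.19 RPKM (log2 fold change -0.62, SE 0.26, limma FDR = 0.881). The environments did not overlap in either genotype, where 18.1% of genes with at least 1 RPKM in Cort-/- and 5.18% in Cort+/+ BECs were lower after OGD-R without overlap. The difference of the responses was -0.72 (SE 0.44, limma FDR = 1.00).

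The mean level of the inducible cyclooxygenase was not higher after this schedule. Ptgs2 was at 88.8 and 62.9 RPKM under NX/NG and 54.7 and 67.8 RPKM after OGD-R in Cort-/- BECs, and at 73.7, 89.5 and 58.0 RPKM and 73.8, 59.9 and 52.0 RPKM in Cort+/+ BECs, with overlap in both (log2 fold changes -0.30 and -0.24, limma FDR = 0.922 and 0.930). Its 95% confidence intervals reached up to 0.31 and 0.22 on the log2 scale. Ptges was at 10.04 and 13.8 RPKM after OGD-R in Cort-/- BECs, above 9.66 and 8.84 RPKM under NX/NG (log2 fold change 0.34, SE 0.18, limma FDR = 0.922), but at 12.9 to 17.6 RPKM before and 13.2 to 17.8 RPKM after in Cort+/+ BECs (log2 fold change 0.05, limma FDR = 0.994). Ptgis and Ptger4 overlapped between the environments in both genotypes (limma FDR of 0.953 to 0.999). Ptgir, at 3 and 5 reads before and 10 and 12 reads after OGD-R in Cort-/- BECs, did not overlap there, where 3822 of 26523 genes tested were higher without overlap. Its log2 fold change was 0.84 (SE 0.33, 95% confidence interval -0.06 to 1.75, limma FDR = 0.922). At this level the 0.1 added to each RPKM shrinks the value, and limma-voom on the reads gave 1.29 (SE 0.55, limma-voom FDR = 0.932). In Cort+/+ BECs the limma log2 fold change of Ptgir was 0.37 (SE 0.33, limma FDR = 0.930), and the difference of the responses was 0.48 (SE 0.47, limma FDR = 1.00). No prostanoid gene had an unadjusted limma p under 0.05 for the difference of the responses, where 2.85% of all genes did and 3 of 27321 were called (0.011%).

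The genes whose pattern over the 10 libraries was most like that of a prostanoid gene were looked up among the 13783 genes whose mean was 1 RPKM or more, as Pearson's r of log2(RPKM + 0.1) on the joint scale. The 10 libraries share their groups, so r describes these libraries only. For Ptgs1 they were Lipg (r = 0.989), Loxl1 (r = 0.982) and Kctd15 (r = 0.966), and for Ptges they were Efemp2 (r = 0.990), Chpf (r = 0.986) and Pcolce (r = 0.983). For Ptgis they were Gm45669 (r = 0.985), Rpa1 (r = 0.975) and Gsn (r = 0.973). Ptgs2 was most like Adam9 (r = 0.931), Plcd3 (r = 0.916) and Git1 (r = 0.912), Ptgds most like Map2k4 (r = 0.956), Hgsnat (r = 0.936) and Mpp1 (r = 0.911), and Ptger4 most like Plekhh2 (r = 0.927), Gm48529 (r = 0.926) and Tagln (r = 0.924). Among the prostanoid genes themselves, r was 0.892 between Ptgs1 and Ptges and 0.853 between Ptgis and Ptges, but -0.26 between Ptgs2 and Ptgs1 and -0.79 between Ptgs1 and Ptgds.

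Around these genes, 56 symbols of the arachidonate pathway were examined, of which 51 were in a table and 28 had a mean of at least 1 RPKM. None was called in the main test of any of the 5 comparisons. At an unadjusted limma p under 0.05, 2 were higher and 2 lower of 49 tested under NX/NG, and 1 was higher and 0 lower of 49 under OGD-R. For the response, 2 were higher and 1 lower of 47 in Cort+/+ BECs, 2 were higher and 0 lower of 46 in Cort-/- BECs, and for the difference of the responses there were 0 of 47. At that threshold stood 8.39%, 3.42%, 5.48%, 4.08% and 2.85% of all genes in the same order. The median log2 fold change of the list under NX/NG was -0.05, against -0.30 for the 7 prostanoid genes. Both sets were chosen with earlier results of these data known, so the 2 medians are a description only.

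Upstream of the cyclooxygenases, the phospholipase Pla2g4a, which releases arachidonic acid, was at 7.28 to 12.2 RPKM over the 10 libraries. Under NX/NG 0 of 13 arachidonate release genes had an unadjusted limma p under 0.05, with a median log2 fold change of -0.05. The secreted phospholipase Pla2g12a was at 4.13, 5.01 and 5.32 jointly scaled RPKM before and 5.30, 6.20 and 6.47 after OGD-R in Cort+/+ BECs (log2 fold change 0.31, SE 0.13, limma FDR = 0.881). Beside the terminal synthases named above, Ptges3, a cytosolic prostaglandin E synthase and HSP90 co-chaperone, was at 27.7 to 38.6 RPKM. None of the 11 other synthases reached an unadjusted limma p under 0.05 between the genotypes, and Cbr2, a carbonyl reductase, was at 5.79, 7.28 and 6.30 jointly scaled RPKM before and 4.12, 3.17 and 4.36 after OGD-R in Cort+/+ BECs (log2 fold change -0.72, SE 0.15, limma FDR = 0.671).

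Slco2a1, the prostaglandin transporter that takes prostaglandins into cells, met the limit for being named through the groups where it is high. Its mean was 1.14 RPKM in Cort+/+ NX/NG and 1.16 RPKM in Cort-/- OGD-R, but 0.584 RPKM in Cort-/- NX/NG. Under NX/NG it was at 0.604 and 0.563 RPKM (101 and 97 reads) in Cort-/- and at 1.20, 1.11 and 1.11 RPKM (200, 198 and 173 reads) in Cort+/+ BECs. Like 16.5% of all genes with at least 1 RPKM, it was lower in Cort-/- BECs without overlap. The fold change was 0.551 (log2 fold change -0.86, SE 0.19, limma FDR = 0.343), and limma-voom called it (log2 fold change -0.96, limma-voom FDR = 0.0241). After OGD-R it was at 1.05 and 1.28 RPKM against 1.96, 1.68 and 1.04 RPKM, with overlap. Within Cort-/- BECs its jointly scaled level was 0.621 and 0.580 RPKM before and 1.02 and 1.24 RPKM after OGD-R (log2 fold change 0.81, SE 0.27, limma FDR = 0.922). Ptgr1, which reduces oxidised prostaglandins further, was at 8.41, 7.63 and 6.43 RPKM before and 9.70, 9.63 and 8.92 RPKM after OGD-R in Cort+/+ BECs on the same scale (log2 fold change 0.33, SE 0.11, limma FDR = 0.881).

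In the lipoxygenase and epoxide branches, Ephx2, the soluble epoxide hydrolase, was at 2.35 and 2.15 RPKM in Cort-/- and at 4.40, 3.95 and 2.86 RPKM in Cort+/+ BECs under NX/NG, without overlap (log2 fold change -0.69, SE 0.20, limma FDR = 0.474). Under NX/NG 16.5% of all genes with at least 1 RPKM were lower in Cort-/- BECs without overlap. Aloxe3, an epidermal-type lipoxygenase, was at 1.11 and 1.30 RPKM against 0.561, 0.690 and 0.867 RPKM (log2 fold change 0.71, SE 0.25, limma FDR = 0.550). Its mean reached 1 RPKM only in the Cort-/- NX/NG group, so that it met the limit for being named through the group where it is high. Ltc4s, the leukotriene C4 synthase, was at 22.4 and 23.3 RPKM in Cort-/- and at 16.0, 19.7 and 17.1 RPKM in Cort+/+ BECs under OGD-R, without overlap (log2 fold change 0.38, SE 0.11, limma FDR = 0.978). Among all genes tested under OGD-R, 2245 of 29775 were higher in Cort-/- BECs without overlap, and 8 of 49 in the pathway list. Of the exonic bases of Ltc4s, 26.4% are shared with a gene on the opposite strand.

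Of the 7 prostanoid receptors beyond Ptger4 and Ptgir, 6 are described here, and these were below 1 RPKM. They were at 0.316 to 0.783 RPKM for Ptgdr2, 0.228 to 0.802 RPKM for Tbxa2r and 0.0537 to 0.148 RPKM for Ptgfr. Ptger3 had at most 5 reads in a library, and Ptger2 and Ptgdr, each listed in 1 of the tables, had at most 1 and 2 reads.

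**Figure D5:**
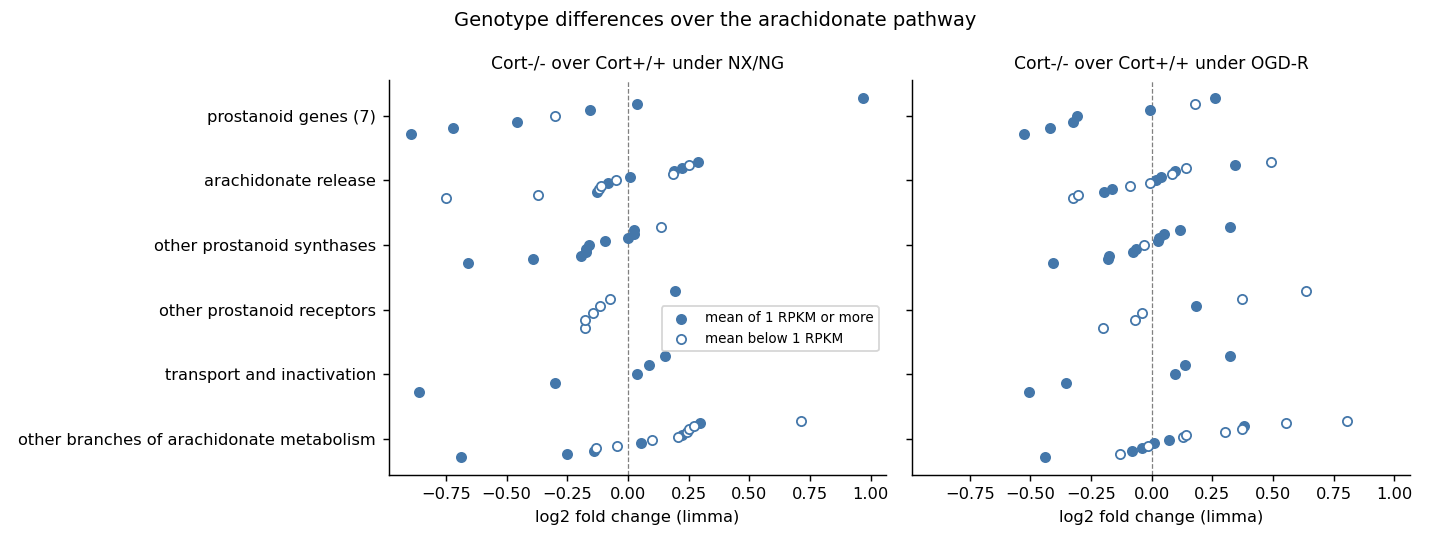
Log2 fold changes of Cort-/- over Cort+/+ BECs from limma (horizontal axes) under NX/NG (left) and OGD-R (right) for the 7 prostanoid genes and for the 5 role groups of the arachidonate pathway (rows, 1 point for each gene), filled where the mean over the libraries is at least 1 RPKM. Under NX/NG Ptgs1 (-0.89), Slco2a1 (-0.86) and Ptges (-0.72) are the lowest filled points, and Ptgds (0.97) is the highest.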

How the data were processed

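RNA-seq of BECs was deposited by the authors as RPKM per gene and library, read counts divided by gene length and by a library size that the authors set, in 1 table for each environment, each normalized on its own. The aligner, counter, genome build and strand setting were not given in the sources used here. The gene Length column gives bases per gene. Columns of the authors' own comparisons and expression categories were not used. RPKM times length was within 0.05 of a whole number of reads for at least 99.99% of values, so reads were recovered, and each library held between 12386048 and 12390428 of them. The library size behind the RPKM was 0.897 to 1.11 times this total.

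Libraries were grouped as labelled, and all with a column entered each fit, including Cort+/+ OGD-R replicate 1, which is low in ribosomal RNA and is not shown in the study's OGD-R heatmap of the genotypes. The values of log2(RPKM + 0.1) were fitted over all genes above 0, with only the groups compared, by limma (version 3.58.1, under R version 4.3.3, with moderated variances that follow mean expression). The Benjamini-Hochberg FDR was taken over all genes with a threshold of 0.05. Comparisons across environments used reads of 27321 genes shared by the tables, after scaling by the trimmed mean of M values. The fits were run on simulated reads, with the same spread for all genes, to check only the sign and size of known changes. The replicates are stated to be separate pools of mice. No fold is given for Hpgd and Tbxas1, whose mean was below 0.1 RPKM. Alternatives were a pseudocount of 1, a filter of 1 RPKM in at least 2 libraries, quantile normalization, limma-voom on the reads, all 4 groups in 1 fit, the deposited RPKM across environments, a replicate block and leaving out libraries. A covariate marking both libraries with little ribosomal RNA was chosen after seeing the data. Intervals cover the spread between libraries.

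Named beside the prostanoid genes are at most 8 pathway genes with a mean of 1 RPKM or more in either group compared and the smallest unadjusted p under 0.05, the receptors, the 3 genes most like each prostanoid gene, markers and Cort. The members and lists were chosen with earlier results of these data known, and the pathway list holds 2 genes under an older and a newer symbol each. The level of the receptor gene Ptger1 is not reported here. Positions are from GENCODE vM21 (GRCm38) and promoters from RefSeq (GRCm38.p6), matched by symbol.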

Additional observations from a re-analysis of the deposited data

How the results depend on the processing

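With 2 or 3 libraries a group, differences near the spread between libraries could not be called, and Ptgir, Hpgd and Tbxas1 are limited by their few recovered reads. The count of prostanoid genes called at the FDR threshold was 0 in all 5 comparisons in the main test and under every alternative but limma-voom under NX/NG, which called 2 (Ptgs1, log2 fold change -0.90, and Ptges, -0.73). Of 268 log2 fold changes under settings other than leaving out a library, 257 kept their direction and side of the threshold, 2 came to pass it and 9 changed sign. None of the values that changed sign was called, and the cause was not tested. They were Ptgs2 under NX/NG (-0.13) and for the difference of the responses (0.033) with the replicate block, Ptgs2 under OGD-R with quantile normalization (0.012), Ptger4 for the Cort+/+ response with the deposited RPKM (0.030), and Ptgis without the libraries low in ribosomal RNA for the Cort+/+ response (-0.11), the Cort-/- response (-0.31) and the difference of the responses (-0.20), with the same Cort+/+ and Cort-/- values (-0.11 and -0.31) from a term for those libraries.

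The count of prostanoid genes at an unadjusted limma p under 0.05 was 1 under OGD-R (Ptgs1) but 2 with limma-voom or all groups in 1 fit, and 0 with the replicate block. For the Cort+/+ response it was 1 (Ptgs1), but 2 with limma-voom and 0 without the library low in ribosomal RNA or with the term for it. Without the low libraries, the comparison under OGD-R and the Cort-/- response rest on 1 Cort-/- OGD-R library, as does the latter with the term. For the Cort-/- response the count was 2 (Ptgs1 and Ptgds), but 3 with limma-voom (with Ptgir), a pseudocount of 1 or all groups in 1 fit. Leaving out each library in turn, this count ranged from 1 to 3 under NX/NG, 0 to 2 under OGD-R, 0 to 1 for the Cort+/+ response, 1 to 2 for the Cort-/- response and 0 to 1 for the difference of the responses, and the count called stayed at 0. Leaving out a Cort-/- library leaves 1 in its group. Of 210 log2 fold changes with a library left out, 25 changed sign, with these ranges. Ptgs2 ranged from -0.21 to 0.29 under NX/NG, -0.16 to 0.15 under OGD-R and -0.30 to 0.20 for the difference of the responses. Ptger4 ranged from -0.32 to 0.011 under NX/NG, -0.14 to 0.048 and -0.45 to 0.053 for the Cort+/+ and Cort-/- responses, and -0.41 to 0.090 for their difference. Ptgis ranged from -0.77 to 0.12 under OGD-R, -0.12 to 0.15 and -0.31 to 0.58 for the responses, and -0.32 to 0.57 for their difference. Ptgds under OGD-R ranged from -0.040 to 0.56, and Ptges for the Cort+/+ response from -0.070 to 0.17. Ptgs1 kept its direction in all comparisons (-0.97 to -0.81 under NX/NG).

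Samples with the same replicate number did not deviate together (r between -0.06 and 0.11 for the 3 numbers shared by the Cort+/+ groups), so the numbers were not taken to pair the samples. With the replicate block, Ptgs1 under NX/NG had a log2 fold change of -0.91 (limma FDR = 0.537), and the count called stayed at 0 in each comparison where it could be fitted. No paired analysis was possible because the Cort-/- groups share fewer than 2 numbers, for the Cort-/- response. The 6 genes at 1 RPKM or more were 6 on the joint scale and without any library.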
